A study of Homo sapiens with 12 samples.

Results

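The genes described here are the integrin and cadherin genes, the receptors by which epithelial cells hold on to matrix and to each other. They were taken from the deposited gene table by symbol: every ITGA or ITGB gene with a number or letter, and every CDH gene with a number. This gave 49 of 60671 genes, made up of 18 integrin alpha genes, 8 integrin beta genes and 23 cadherin genes. Genes for integrin-binding proteins and antisense transcripts were left out, and no expression value entered the choice.

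The cells were LS180, an established line of human colorectal cancer cells. Each of 3 lines carried a doxycycline-inducible construct: V5-tagged wildtype SOX9, a transcription factor of intestinal stem cells, V5-tagged mutant SOX9 called M303, which is truncated, or a GFP control. Each line was grown with doxycycline at 0.5 µg/ml for 24 h (induced) or without it (uninduced), so that the 6 groups were the SOX9 line induced and uninduced, the M303 line induced and uninduced, and the GFP line induced and uninduced. Each group held 2 libraries of poly(A)-selected RNA. The study asked what SOX9 overexpression does to these cells, with the truncated protein and GFP as the constructs to set it against. Each construct was read in 1 line, and protein was not analysed here. The labels do not state whether the 2 libraries of a group are separate cultures. The tests therefore rest on the spread between libraries, which may be technical.

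Integrins are pairs of 1 alpha and 1 beta subunit that span the membrane, bind laminins, collagens or RGD-containing proteins outside, and recruit talin and kindlin inside. ITGA6 pairs with ITGB4 in the hemidesmosome of epithelia and with ITGB1 elsewhere, whereas ITGAV pairs with ITGB1, ITGB3, ITGB5, ITGB6 or ITGB8. Classical cadherins bind the same cadherin on the neighbouring cell in the presence of calcium and are tied to actin by catenins. E-cadherin (CDH1) is the cadherin of epithelial adherens junctions, and LI-cadherin (CDH17) marks the intestinal epithelium.

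Of the genes that changed, 3 have an entry among the RefSeq promoters of GRCh38.p14, where 29 of the 49 genes matched. They are shown because each of these genes passed the test after SOX9 induction. Whether they are controlled together was not tested. Each line gives the bases before the RefSeq start, at most 250 and, for ITGB8, only the 52 that also precede the start in the deposited table. All are on the plus strand, at chr7:20330650-20330701 for ITGB8, chr2:186589806-186590055 for ITGAV and chr2:172427086-172427335 for ITGA6. Capitals mark a match to GGGCGG, the GC box, which here lies on the reverse strand.
ITGB8: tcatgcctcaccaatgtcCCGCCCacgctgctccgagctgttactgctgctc
ITGAV: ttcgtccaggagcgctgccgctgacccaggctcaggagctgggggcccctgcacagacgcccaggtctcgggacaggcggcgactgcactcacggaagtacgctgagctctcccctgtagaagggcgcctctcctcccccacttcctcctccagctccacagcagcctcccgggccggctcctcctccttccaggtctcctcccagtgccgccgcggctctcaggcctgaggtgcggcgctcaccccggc
ITGA6: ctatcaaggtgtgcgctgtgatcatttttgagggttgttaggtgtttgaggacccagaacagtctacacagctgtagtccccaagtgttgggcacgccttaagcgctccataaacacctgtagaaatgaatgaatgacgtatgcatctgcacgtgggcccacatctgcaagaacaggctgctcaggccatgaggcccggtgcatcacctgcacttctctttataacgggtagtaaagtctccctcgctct
The SOX-type core letters ACAAT and ACAAAG, which share their first 4 letters, were searched on both strands of the 250 bases before the start, as was the GC box. Neither string was found in these 3 promoters. Among the 29 matched genes, 8 held ACAAT and 4 held ACAAAG, against 25.2% and 13.7% of all 27305 promoters of the same length. The GC box was found in 11 of the 29 matched genes and in 42.3% of all promoters. ITGB8 held 2 GC boxes and ITGAV and ITGA6 held 0. The GC content was 71.2% for ITGB8, 70.8% for ITGAV and 50.8% for ITGA6. A match is a description of letters, and its absence from this window says nothing about binding elsewhere.

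The libraries held between 31012775 and 48529770 counts assigned to genes. The induced SOX9 line held the deepest library and one close to the shallowest, at 48529770 and 31317894 counts. SOX9 itself stood at 711 and 760 CPM (counts scaled to a common library size by TMM factors) in the induced SOX9 line, against 357 and 381 in the uninduced one. In the M303 line it stood at 818 and 867 CPM induced, against 399 and 367 uninduced, and in the GFP line at 405 and 371 CPM induced, against 398.8 and 392.3 uninduced. The log2 fold change of SOX9 was 1.00 ± 0.07 (SE) in the SOX9 line and 1.14 ± 0.07 in the M303 line. SOX9 was thus higher after induction in both lines that the labels say carry a SOX9 construct. Reads of the construct and of the cell's own gene cannot be told apart.

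LS180 cells expressed a short list of these adhesion genes at high level. Of the 49, 19 had a mean of at least 1 CPM and 8 of these at least 100 CPM. Another 20 were detected below 1 CPM, and 10 had no count in any library: ITGA4, ITGA8, ITGB3, CDH6, CDH8, CDH9, CDH12, CDH18, CDH19 and CDH20. A total of 0 among 442296787 counts allows up to 0.00678 CPM, taking 3 independent counts as the limit, for counting error only. Both mates of a read pair were counted, so counts are not independent and the true limit is higher. Levels were compared between genes per length, as TPM, a count per gene length scaled to the same total in every library, computed from the counts and the exon lengths in the deposited table.

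Among the alpha subunits, ITGA6, a laminin receptor subunit, led with a mean of 589 TPM and 78.1% of the summed alpha TPM. Its values were 668 and 690 TPM in the induced SOX9 line and 543 to 655 TPM in the other 10 libraries. ITGAV followed at 60.01 TPM (range 51.3 to 74.4) and ITGA3, another laminin receptor subunit, at 53.7 TPM (47.8 to 59.99). The ranges of ITGAV and ITGA3 overlapped, and that of ITGA6 lay far above both. The collagen receptor subunit ITGA2 stood at 33.3 TPM, and ITGAE, ITGA1 and ITGA7 between 3.82 and 9.30 TPM. The remaining 11 alpha genes were below 1 CPM, among them the leukocyte subunits ITGAL, ITGAM, ITGAX and ITGAD.

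Among the beta subunits, ITGB1, the partner of most alpha subunits, had a mean of 300 TPM (267 to 343) and 52.7% of the summed beta TPM. ITGB4, the hemidesmosome subunit, had 207 TPM (163 to 236), or 36.2%, and ITGB5, a partner of ITGAV, 51.5 TPM (44.9 to 61.5), or 9.03%. The ranges of these 3 did not overlap. ITGB6, ITGB8 and ITGB7 stood at 5.17, 3.30 and 2.95 TPM, while the leukocyte subunit ITGB2 was at 0.212 TPM. ITGB7 shares 1881 exon bases with ZNF740 and ITGAE shares 427 with HASPIN, both on the opposite strand. The counting used no strand, so the levels of ITGB7 and ITGAE are uncertain.

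Among the cadherins, CDH17 had a mean of 372 TPM (348 to 412) and CDH1 one of 274 TPM (252 to 297). Together with CDH3 (P-cadherin, 74.3 TPM, range 68.1 to 81.7) they held nearly all of the cadherin TPM: 48.1% for CDH17, 35.4% for CDH1 and 9.59% for CDH3. CDH24 followed at 37.4 TPM and CDH11, a cadherin known from mesenchymal cells and bone, at 15.0 TPM. The other 18 cadherin genes were each below 1 TPM. N-cadherin (CDH2), the cadherin of neural and mesenchymal cells, had 0.243 and 0.0628 CPM in the induced SOX9 line, against 0.107 and 0.0563 CPM in the uninduced one. It had 0.236 and 0.0575 CPM in the induced M303 line, against 0 in both uninduced M303 libraries, and 0.0528 and 0 CPM in the induced GFP line, against 0 and 0.0277 CPM in the uninduced one. With 0 to 12 counts a library it was not tested.

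**Figure D1:**
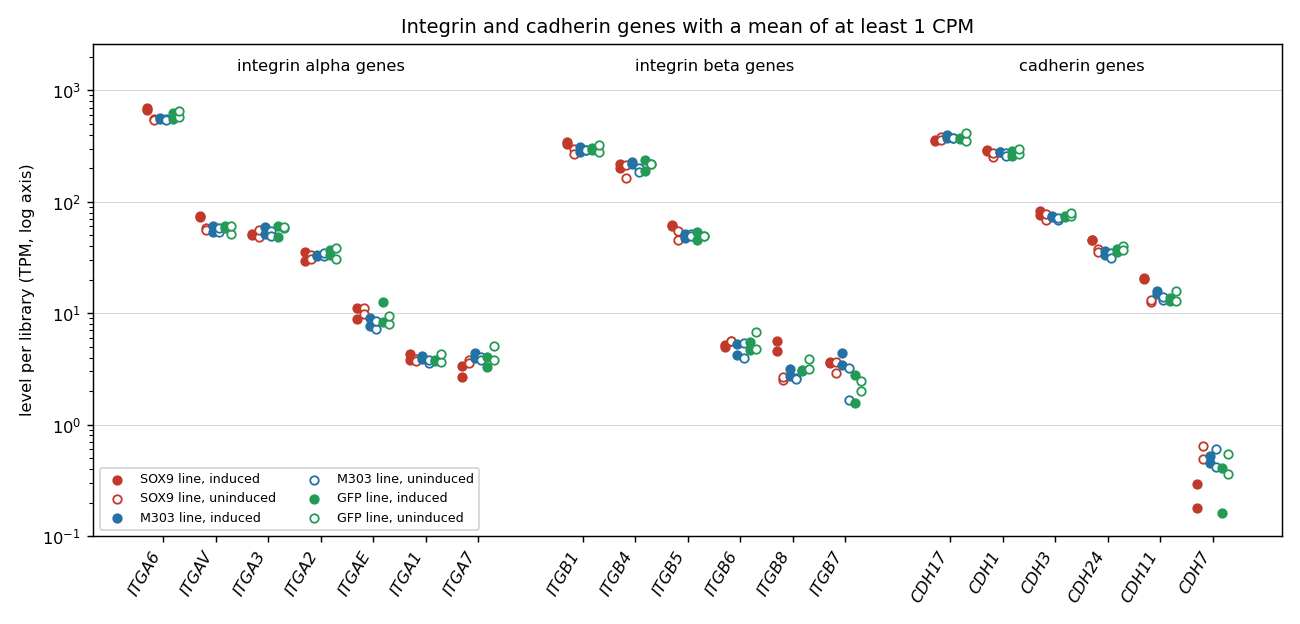
TPM on a log axis in each of the 12 libraries for the 19 genes with a mean of at least 1 CPM, ordered by mean within alpha, beta and cadherin genes; each point is 1 library, filled for induced and open for uninduced. ITGA6, ITGB1, ITGB4, CDH17 and CDH1 sit above 100 TPM in every library, and the groups of a gene lie close together compared with the distance between genes.

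As a sum, the markers of an intestinal epithelial line were high, and those of other cell types were near 0. Among the 7 markers of the line, KRT8 had the most counts, 170905 to 263694 a library, and KRT20 the fewest, 106 to 474. The summed level of 7 colon epithelium genes was 9207 and 9219 CPM in the induced SOX9 line, against 9959 and 11226 CPM in the uninduced SOX9 line, and 10070 to 11300 CPM in the other 8 libraries. The 5 endothelial markers summed to at most 0.575 CPM in any library, the 5 leukocyte markers to 1.89 to 4.21 CPM, almost all of it CD14, and CD3E was at 0 throughout. The 6 fibroblast markers summed to 1.36 and 2.17 CPM in the induced SOX9 line, against 1.10 and 1.18 CPM in the uninduced SOX9 line and 0.782 to 1.27 CPM elsewhere. COL1A1 had 30 and 31 counts and COL1A2 13 and 12 counts in the induced SOX9 line, against 24 and 22 counts and 4 and 0 counts in the uninduced one. These counts are not scaled for depth. The induced SOX9 libraries held 48529770 and 31317894 counts, and the uninduced ones 37218004 and 36168243. THY1 was at 0 in 10 of the 12 libraries, both induced SOX9 libraries among them. PDGFRA was also at 0 in 10, with 6 counts in replicate 1 of the induced SOX9 line and 2 in replicate 2 of the induced GFP line. DCN had 2 and 6 counts in the induced SOX9 line, against 2 and 0 in the uninduced one and at most 4 elsewhere. LUM was not highest there, with 16 and 20 counts in the induced SOX9 line, against 14 and 14 in the uninduced one. It had 26 and 24 counts in the induced GFP line, 10 and 32 in the uninduced GFP line and 4 to 18 in the M303 line.

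Induction of wildtype SOX9 was followed by higher levels of 4 adhesion genes and lower levels of 0. They were ITGB8, CDH11, ITGAV and ITGA6, at 1.87-fold, 1.54-fold, 1.24-fold and 1.19-fold. By edgeR's quasi-likelihood test with Benjamini-Hochberg adjustment over 18219 genes, 27 of the 49 genes were tested and 4 of them passed an adjusted p of 0.05. Over all genes, 541 passed, or 2.97%, with 330 higher (1.81%) and 211 lower (1.16%). The median log2 fold change was 0.07 for the 27 tested genes and 0.01 for all genes. The 27 were those with enough counts (10 alpha, 7 beta and 10 cadherin genes), and 12 further genes with 2 to 66 counts in all were not tested. Without replicate 2 or replicate 1 of the induced SOX9 line, or replicate 2 of the uninduced one, 231, 270 and 301 genes passed in place of 541. The number of adhesion genes passing was then 2 in each case, as it was without replicate 1 of the uninduced SOX9 line or replicate 2 of the uninduced M303 line.

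ITGB8, which with ITGAV forms a receptor that activates latent TGF-beta, lies at chr7:20330702-20415754 (plus strand, Ensembl annotation of GRCh38). It had 17.3 and 21.3 CPM in the induced SOX9 line, against 9.90 and 10.7 CPM in the uninduced one. It had 11.95 and 10.49 CPM in the induced M303 line against 10.3 and 9.99 CPM uninduced, and 11.8 and 11.7 CPM in the induced GFP line against 12.6 and 14.5 CPM uninduced. Both induced SOX9 libraries lay above all 10 others. The log2 fold change after SOX9 induction was 0.91 ± 0.15 (SE; edgeR adjusted p = 0.000720), and it passed the test in each of 18 alternative fits (largest adjusted p 0.0422). ITGB8 shares 98 exon bases with ITGB8-AS1 on the opposite strand, which had 317 counts in all libraries against 5643 for ITGB8, and the counting did not use strand.

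CDH11 (chr16:64943753-65126112, minus strand) had 68.2 and 68.5 CPM in the induced SOX9 line, against 43.1 and 45.8 CPM in the uninduced one. The M303 line had 52.7 and 50.6 CPM induced, against 45.6 and 48.0 CPM uninduced. The GFP line had 45.3 and 43.6 CPM induced, against 44.3 and 51.2 CPM uninduced. Again the induced SOX9 libraries lay above all others, by a gap much wider than that between replicates of either SOX9 group. The log2 fold change after SOX9 induction was 0.62 ± 0.09 (SE; edgeR adjusted p = 0.000204), and it passed in each of the 18 alternative fits (largest adjusted p 0.00547). In TPM, CDH11 averaged 20.6 ± 0.30 in the induced and 12.9 ± 0.51 in the uninduced SOX9 line (SD, n = 2 each), still below CDH1, CDH17 and CDH3. The summed fibroblast markers were also highest in the induced SOX9 line, at 1.36 and 2.17 CPM against 1.10 and 1.18 CPM, far below the 68.2 and 68.5 CPM of CDH11. Their part in the result was not tested. In bulk RNA, more cells with a transcript and more transcript per cell cannot be told apart.

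The other pair of genes that passed rose less and with less certainty. ITGAV (chr2:186590056-186680901, plus strand) had 153 and 152 CPM in the induced SOX9 line, against 125 and 120 CPM in the uninduced one. It had 125 and 113 CPM in the induced M303 line against 114 and 123 CPM uninduced, and 125 and 123 CPM in the induced GFP line against 110 and 122 CPM uninduced. Its log2 fold change was 0.32 ± 0.08 (SE; edgeR adjusted p = 0.0310). ITGA6 (chr2:172427354-172506459, plus strand) had 1131 and 1149 CPM in the induced SOX9 line, against 957 and 952 CPM in the uninduced one. It had 958 and 945 CPM in the induced M303 line against 968 and 941 CPM uninduced, and 1039.6 and 956 CPM in the induced GFP line against 1004 and 1079 CPM uninduced. Its log2 fold change was 0.26 ± 0.07 (SE; edgeR adjusted p = 0.0366). For both genes the induced SOX9 libraries were the highest of the 12. Neither call was stable: ITGAV failed without any 1 of the 4 SOX9 libraries (adjusted p up to 0.265) or without replicate 2 of the uninduced M303 line. ITGA6 failed without any 1 of the 4 SOX9 or 4 M303 libraries (adjusted p up to 0.388). Their log2 fold changes stayed between 0.28 and 0.34 for ITGAV and between 0.24 and 0.26 for ITGA6 over the 18 fits.

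**Figure D2:**
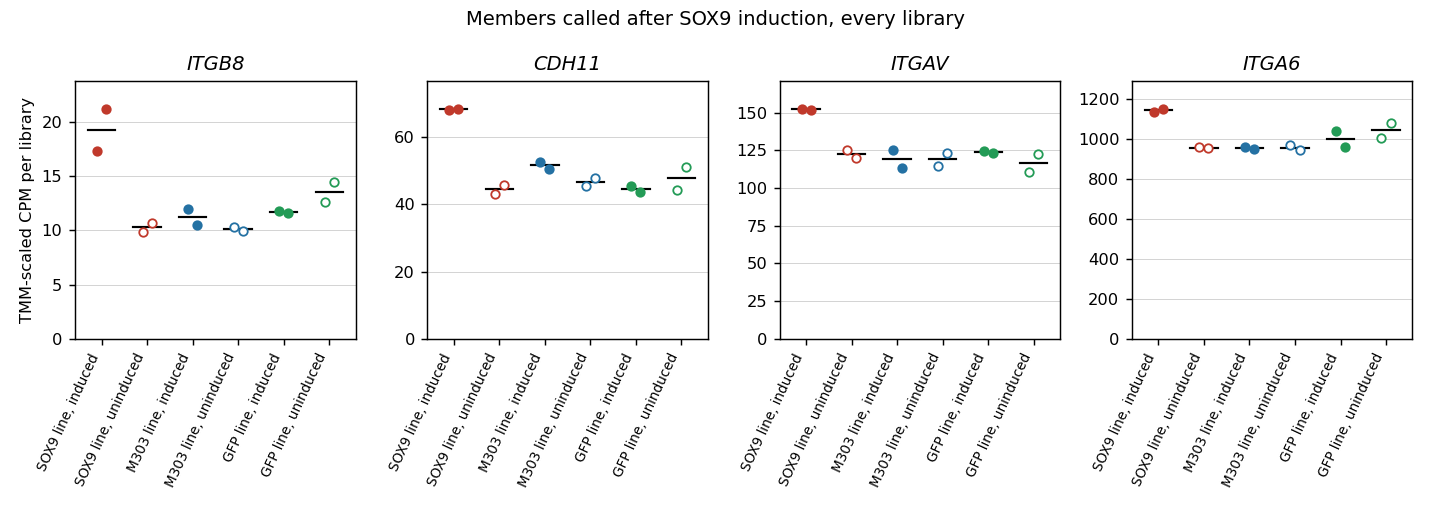
TMM-scaled CPM of ITGB8, CDH11, ITGAV and ITGA6 in every library by group, on axes that start at 0; each point is 1 library and the bar is the mean of the 2. In each panel both induced SOX9 libraries lie above the other 10, by most for ITGB8 and CDH11 (1.87-fold and 1.54-fold over the uninduced SOX9 line).

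The main beta partners of these alpha subunits did not pass. ITGB1 had 502 and 512 CPM in the induced SOX9 line, against 467 and 419 CPM in the uninduced one (log2 fold change 0.20 ± 0.07, edgeR adjusted p = 0.210). ITGB5 had 101.1 and 97.6 CPM, against 75.8 and 92.7 CPM (0.24 ± 0.10, adjusted p = 0.245). In both genes the induced and uninduced SOX9 libraries did not overlap, and the 95% intervals of the log2 fold change, 0.04 to 0.35 for ITGB1 and 0.04 to 0.44 for ITGB5, left out 0 before adjustment. ITGB4, the hemidesmosome partner of ITGA6, had 342 and 364 CPM induced, against 286 and 377 CPM uninduced, so that the groups overlapped (0.09 ± 0.11, adjusted p = 0.814). ITGA3 had 124 and 124 CPM induced, against 122 and 142 CPM uninduced (-0.08 ± 0.10, adjusted p = 0.7995). The sign of the ITGB4 and ITGA3 values turned when 1 uninduced SOX9 library was left out.

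In the other lines ITGB1 and ITGB5 stayed below their induced SOX9 levels in every library. ITGB1 had 466 and 429 CPM in the induced M303 line against 453 and 452 CPM uninduced, and 437 and 465 CPM in the induced GFP line against 440 and 472 CPM uninduced. ITGB5 had 78.1 and 84.9 CPM in the induced M303 line against 86.7 and 83.7 CPM uninduced, and 86.3 and 75.8 CPM in the induced GFP line against 84.5 and 78.1 CPM uninduced. ITGB4 and ITGA3 had no group that stood apart. ITGB4 had 368 and 389 CPM in the induced M303 line against 351 and 324 CPM uninduced, and 398 and 324 CPM in the induced GFP line against 386 and 358 CPM uninduced. ITGA3 had 127 and 147 CPM in the induced M303 line against 138 and 125 CPM uninduced, and 146 and 120 CPM in the induced GFP line against 149 and 143 CPM uninduced.

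Summed over each class, the TPM of the induced SOX9 line stood above the other groups for the integrins but not for the cadherins. The 18 alpha genes summed to 854 ± 19.5 TPM in the induced and 707 ± 3.51 TPM in the uninduced SOX9 line (SD, n = 2 each). The alpha sum was 702 to 833 TPM in the M303 and GFP libraries, the highest being replicate 2 of the uninduced GFP line, close to the lower induced SOX9 library at 840.03 TPM. The 8 beta genes summed to 621 ± 20.2 TPM in the induced and 534 ± 19.3 TPM in the uninduced SOX9 line, and to 536 to 597 TPM in the M303 and GFP libraries. The 23 cadherin genes summed to 789 ± 15.0 TPM in the induced and 755 ± 2.80 TPM in the uninduced SOX9 line. The M303 line had a like pair of cadherin sums, 789 ± 18.2 TPM induced and 756 ± 11.8 TPM uninduced, and the GFP line had 766 ± 23.9 TPM induced and 793 ± 68.3 TPM uninduced. These sums were not tested, and a few genes carried them. In the induced SOX9 line ITGA6 held 79.5% of the alpha sum, and ITGB1 and ITGB4 held 54.3% and 33.6% of the beta sum. Gene by gene, the integrins did not rise as a class above the cadherins. The median log2 fold change after SOX9 induction was -0.08 for the 10 tested alpha genes, 0.09 for the 7 beta genes and 0.15 for the 10 cadherin genes.

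No change in the epithelial cadherins passed the test. CDH1 had 441 and 437 CPM in the induced SOX9 line, against 399 and 431 CPM in the uninduced one (log2 fold change 0.08 ± 0.07, edgeR adjusted p = 0.687). CDH17 had 341 and 348 CPM, against 383 and 362 CPM (-0.11 ± 0.07, adjusted p = 0.534). CDH3 had 117 and 123 CPM, against 108 and 122 CPM (0.07 ± 0.08, adjusted p = 0.793). The induced and uninduced libraries of CDH1 and of CDH17 did not overlap, whereas those of CDH3 did. The 95% intervals ran from -0.06 to 0.23 for CDH1, from -0.26 to 0.03 for CDH17 and from -0.09 to 0.23 for CDH3 before adjustment, and changes within these intervals are not excluded. In the other lines CDH1 had 426 and 438 CPM in the induced M303 line against 430 and 402 CPM uninduced, and 435 and 405 CPM in the induced GFP line against 424 and 445 CPM uninduced. CDH17 had 390 and 368 CPM in the induced M303 line against 378 and 375 CPM uninduced, and 357 and 365 CPM in the induced GFP line against 356 and 391.8 CPM uninduced. CDH3 had 112 and 115 CPM in the induced M303 line against 108 and 113 CPM uninduced, and 113 and 113 CPM in the induced GFP line against 119 and 117 CPM uninduced. The 2 induced SOX9 libraries were the lowest of the 12 for CDH17, whereas those of CDH1 lay within the range of the others. CDH1 and CDH3 are neighbours on chromosome 16, 14.7 kb apart, and each shares exon bases with a gene on the opposite strand.

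Of the 16 remaining tested genes, 0 passed. CDH7, named here after its values were seen because it lay lowest among genes of at least 1 CPM, had 0.65 and 1.07 CPM in the induced SOX9 line, against 2.41 and 1.86 CPM in the uninduced one. Its log2 fold change was -1.33 ± 0.45 (edgeR adjusted p = 0.139). The lowest CDH7 library was replicate 1 of the induced GFP line, at 0.581 CPM. Unscaled CDH7 counts were 22 and 55 in the induced GFP line against 42 and 70 uninduced, and 81 and 58 in the induced M303 line against 76 and 59 uninduced. CDH24, likewise, stood at 0.25 ± 0.10 (adjusted p = 0.259). In all, 8 of the 27 tested genes and 2520 of the 18219 genes tested had an unadjusted p under 0.05.

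Neither the truncated SOX9 nor GFP was followed by a change in these genes that passed the test. After M303 induction, 0 of the 27 tested genes passed, with 0 at an unadjusted p under 0.05, and 1 of 18219 genes passed overall (0.00549%), which was SOX9 itself. After GFP induction, again 0 of the 27 passed, with 0 at an unadjusted p under 0.05, and 0% of all genes passed (580 of 18219 at an unadjusted p under 0.05). DESeq2 also called 0 of these genes in both comparisons. ITGB8 had a log2 fold change of 0.15 ± 0.15 after M303 induction and -0.21 ± 0.15 after GFP induction. CDH11 had 0.14 ± 0.09 after M303 induction and -0.10 ± 0.09 after GFP induction. ITGAV had 0.0045 ± 0.0796 after M303 induction and 0.09 ± 0.08 after GFP induction. ITGA6 had -0.0039 ± 0.0662 after M303 induction and -0.06 ± 0.07 after GFP induction. Each of these 8 values lay within 2 standard errors of 0. Among the 19 genes of at least 1 CPM, the log2 fold change after induction was above 0 for 12 genes in the SOX9 line, 13 in the M303 line and 3 in the GFP line, with medians of 0.08, 0.04 and -0.06.

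**Figure D3:**
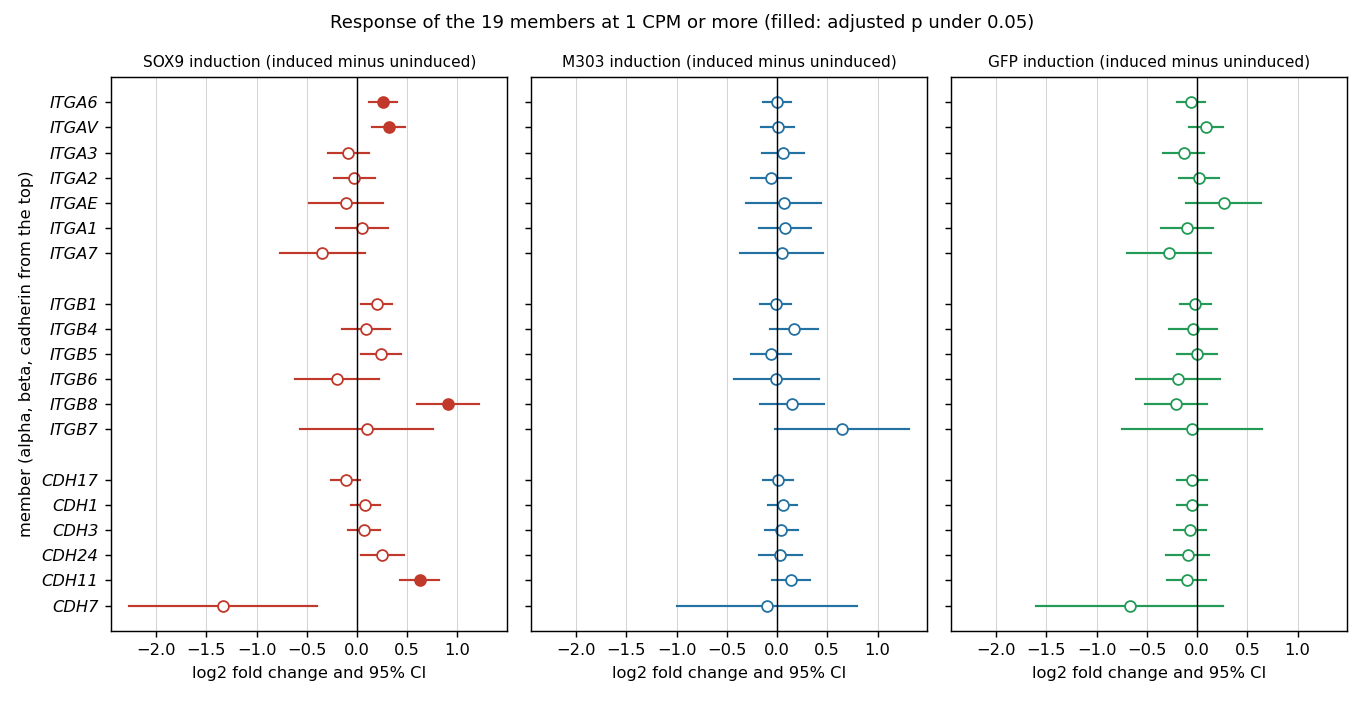
Log2 fold change (induced minus uninduced) with its 95% confidence interval for the 19 genes of at least 1 CPM, in the SOX9, M303 and GFP lines; filled points passed an adjusted p of 0.05. The 4 filled points are ITGA6, ITGAV, ITGB8 and CDH11 in the SOX9 line, and the M303 and GFP panels hold none.

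The design allows a test of whether the response to wildtype SOX9 differed from that to GFP. For 2 of the 27 tested genes it did, both higher, against 163 of 18219 genes overall (0.895%), of which 115 were higher (0.631%). For ITGB8 the log2 fold change was larger in the SOX9 line by 1.11 ± 0.21 (SE; edgeR adjusted p = 0.00693), and for CDH11 by 0.73 ± 0.13 (adjusted p = 0.00427). CDH11 passed in each of the 18 alternative fits, whereas ITGB8 failed without replicate 2 of the uninduced GFP line (adjusted p = 0.0570) or replicate 2 of the induced SOX9 line (adjusted p = 0.104). The number of genes passing overall was 95 without replicate 2 and 108 without replicate 1 of the induced SOX9 line. The difference for ITGA6 was 0.32 ± 0.09 (adjusted p = 0.174), which passed with DESeq2 alone (adjusted p = 0.0471), and that for ITGAV was 0.23 ± 0.11 (adjusted p = 0.582).

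The lines were also compared before induction, and no adhesion gene passed. For ITGB8, the uninduced SOX9 line, at 9.90 and 10.7 CPM, and the uninduced M303 line, at 10.3 and 9.99 CPM, lay below the uninduced GFP line, at 12.6 and 14.5 CPM. The log2 difference from the GFP line was -0.40 ± 0.15 (unadjusted p = 0.0154 in edgeR, adjusted p = 0.920) for the SOX9 line and -0.42 ± 0.15 (unadjusted p = 0.0116 in edgeR, adjusted p = 0.799) for the M303 line. Against the uninduced GFP line, 0 of the 27 tested genes passed in either line, with 0% of all genes passing for the SOX9 line and 0.00549% for the M303 line. ITGB8 was the 1 gene of the 27 with an unadjusted p under 0.05 in each, and DESeq2 called 0 of the 27. The induced SOX9 libraries of ITGB8, at 17.3 and 21.3 CPM, also lay above the uninduced GFP libraries. CDH11 differed from the uninduced GFP line by -0.10 ± 0.09 in the SOX9 line and by -0.03 ± 0.09 in the M303 line.

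The response to wildtype SOX9 was not shown to differ from that to the truncated protein for any of these genes. By the same test, 0 of the 27 passed, against 89 of 18219 genes overall (0.489%), or 57 without replicate 2 of the induced SOX9 line. The difference in log2 fold change was 0.76 for ITGB8 (95% interval 0.32 to 1.198, edgeR adjusted p = 0.199) and 0.48 for CDH11 (0.21 to 0.75, adjusted p = 0.167). It was 0.26 for ITGA6 (0.07 to 0.46, adjusted p = 0.489) and 0.31 for ITGAV (0.08 to 0.55, adjusted p = 0.491). These 4 intervals, and that of ITGB5, left out 0 before adjustment, so 5 of the 27 genes had an unadjusted p under 0.05, against 1273 of 18219 genes. DESeq2 called 0 of the 27 here too. Between the M303 and GFP responses, 0 of the 27 passed by edgeR or DESeq2, with 0 at an unadjusted p under 0.05, and 0.00549% of all genes passed. The comparisons share the libraries of the SOX9 line, so their values for a gene are not independent.

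**Figure D4:**
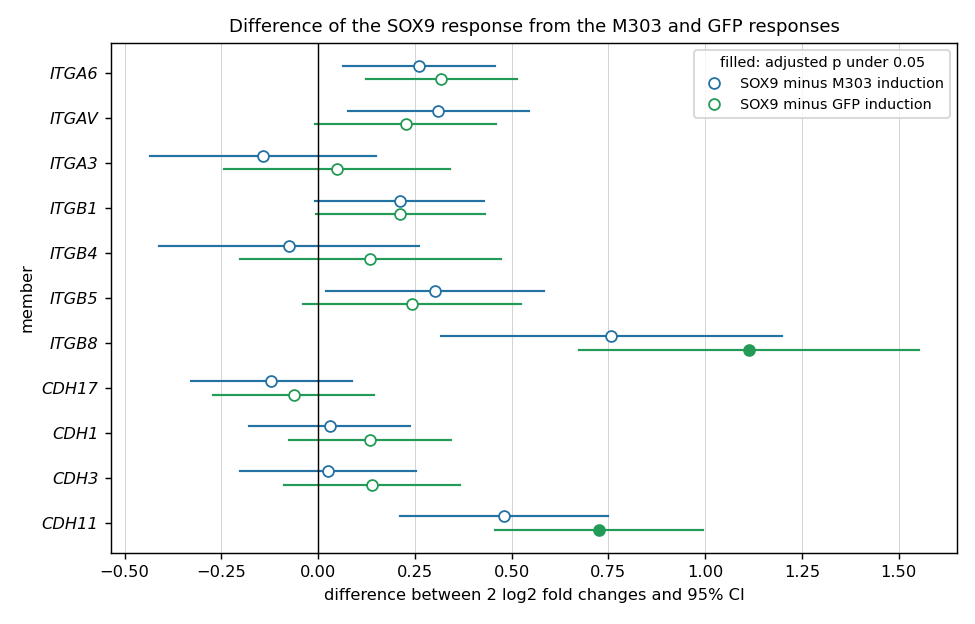
Difference between the log2 fold change after SOX9 induction and that after M303 or GFP induction, with 95% confidence intervals, for 11 of the tested genes; filled points passed an adjusted p of 0.05. Only ITGB8 (1.11) and CDH11 (0.73) against GFP are filled, and the intervals of CDH1, CDH3 and CDH17 cross 0 in both comparisons.

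The genes around these receptors were read from lists of ligands, adaptors and partners. Of the lists of cadherin partners and relatives, none held a change that passed: 0 of 9 tested catenins and cadherin partners (of 12 listed), 0 of 11 desmosome genes (of 12) and 0 of 18 other cadherin superfamily genes (of 26) passed after SOX9 induction. Their median log2 fold changes were 0.05, -0.02 and 0.02. Of 13 cadherin repressors and mesenchymal state genes, 7 were tested and 0 passed (median 0.11). That list also holds GRHL2, OVOL1, OVOL2, ESRP1 and ESRP2, genes of the epithelial state. Its count and median therefore do not describe repressors and mesenchymal genes alone. Over all genes, 2.97% passed. At an unadjusted p under 0.05 in edgeR there were 1 of the 9 catenins and partners, 3 of the 11 desmosome genes, 1 of the 18 other superfamily genes and 2 of the 7 repressors and state genes. DESeq2 called 1 desmosome gene, PKP3, and 1 of the repressors and state genes, OVOL2. SNAI1, which encodes a repressor of CDH1, had 1.30 and 1.63 CPM in the induced SOX9 line, against 1.18 and 1.41 CPM in the uninduced one and 0.992 to 2.27 CPM elsewhere (log2 fold change 0.18 ± 0.42, edgeR adjusted p = 0.920). SNAI2 and ZEB1, which encode 2 further repressors of CDH1, were at most 0.131 and 0.0657 CPM in any library, and VIM, an intermediate filament gene, at most 0.460 CPM. PKP3, OVOL2, SNAI1, SNAI2, ZEB1 and VIM are named after their values were seen.

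Of 31 listed integrin ligands, 23 were tested after SOX9 induction, and 5 were higher and 1 lower, where 1.81% of all genes were higher and 1.16% lower. The list was chosen with earlier results of these data known, so its share is a description and not a test. The median log2 fold change was 0.22 for these ligands and 0.01 for all genes. MFGE8, a ligand of ITGAV integrins, had 8.92 and 10.6 CPM in the induced SOX9 line, against 2.68 and 3.15 CPM in the uninduced one (log2 fold change 1.74 ± 0.25, edgeR adjusted p = 0.000159). CCN2, a matricellular protein, had 28.8 and 31.0 CPM, against 16.9 and 16.9 CPM (0.82 ± 0.12, adjusted p = 0.000230). Nephronectin (NPNT) had 90.2 and 90.7 CPM, against 62.2 and 63.3 CPM (0.53 ± 0.09, adjusted p = 0.000606). For each of the 3, both induced SOX9 libraries were the highest of all 12, and the call held in each of 18 alternative fits. LAMB1, a laminin chain, had 204 and 213 CPM, against 161 and 165 CPM (0.36 ± 0.07, adjusted p = 0.00631), and failed without replicate 2 of the induced SOX9 line. The lower one, THBS1, outside the rule for names and chosen after its value was seen, had 12.8 and 9.54 CPM, against 17.8 and 18.1 CPM (-0.67 ± 0.15, adjusted p = 0.0135). It failed without replicate 2 of the induced or of the uninduced SOX9 line. After M303 induction the log2 fold changes of MFGE8, CCN2, NPNT and LAMB1 were 0.38, 0.15, 0.19 and 0.07, and after GFP induction they were 0.44, 0.24, 0.05 and -0.06, with 0 of the 23 ligand genes passing in either line by edgeR or DESeq2 (3 and 0 at an unadjusted p under 0.05). The difference between the SOX9 and GFP responses did not pass in edgeR for any of these 4 (adjusted p = 0.127 for MFGE8, 0.179 for CCN2, 0.0757 for NPNT and 0.0620 for LAMB1), whereas DESeq2 called 2 of them, LAMB1 and NPNT.

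Among 30 tested adaptor and focal adhesion genes (of 33 listed), 1 passed after SOX9 induction, a share close to the 2.97% of all genes, and the list's median was -0.03. The gene that passed was FERMT1, which encodes kindlin-1, an activator of beta integrins in epithelia. FERMT1 had 457 and 468 CPM in the induced SOX9 line, against 340 and 388 CPM in the uninduced one (log2 fold change 0.35 ± 0.08, edgeR adjusted p = 0.0156). The libraries did not overlap, but the call failed without either induced SOX9 library or without replicate 1 of the uninduced SOX9 line (adjusted p up to 0.205).

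Of 7 colon epithelium genes, all tested, 4 were lower after SOX9 induction and 0 higher, where 1.16% of all genes were lower. This list too was chosen with earlier results of these data known, so its share is a description. KRT20, a keratin of differentiated enterocytes, had 2.78 and 3.33 CPM in the induced SOX9 line, against 9.84 and 8.499 CPM in the uninduced one (log2 fold change -1.60 ± 0.21, edgeR adjusted p = 6.26e-05). LGALS4, a galectin of the intestinal epithelium, had 751 and 757 CPM, against 1238 and 1165 CPM (-0.67 ± 0.07, adjusted p = 1.8e-06). Both calls held in each of 18 alternative fits. CDX2, the intestinal transcription factor, was lower by -0.46 ± 0.09 (adjusted p = 0.00418), and VIL1, which encodes villin, by -0.28 ± 0.07 (adjusted p = 0.0446). CDX2 failed without replicate 1 of the induced or replicate 2 of the uninduced SOX9 line, and VIL1 failed in 9 of 18 fits, 7 of them without 1 SOX9 or M303 library. The keratins KRT8 and KRT18 did not pass (-0.16 ± 0.08 and -0.14 ± 0.07, adjusted p = 0.405 and 0.389), nor did EPCAM, an epithelial adhesion molecule, with 1024 and 1024 CPM in the induced SOX9 line, against 1010 and 1032 CPM in the uninduced one. In the M303 and GFP lines 0 of the 7 passed by edgeR or DESeq2 (2 and 0 at an unadjusted p under 0.05).

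**Figure D5:**
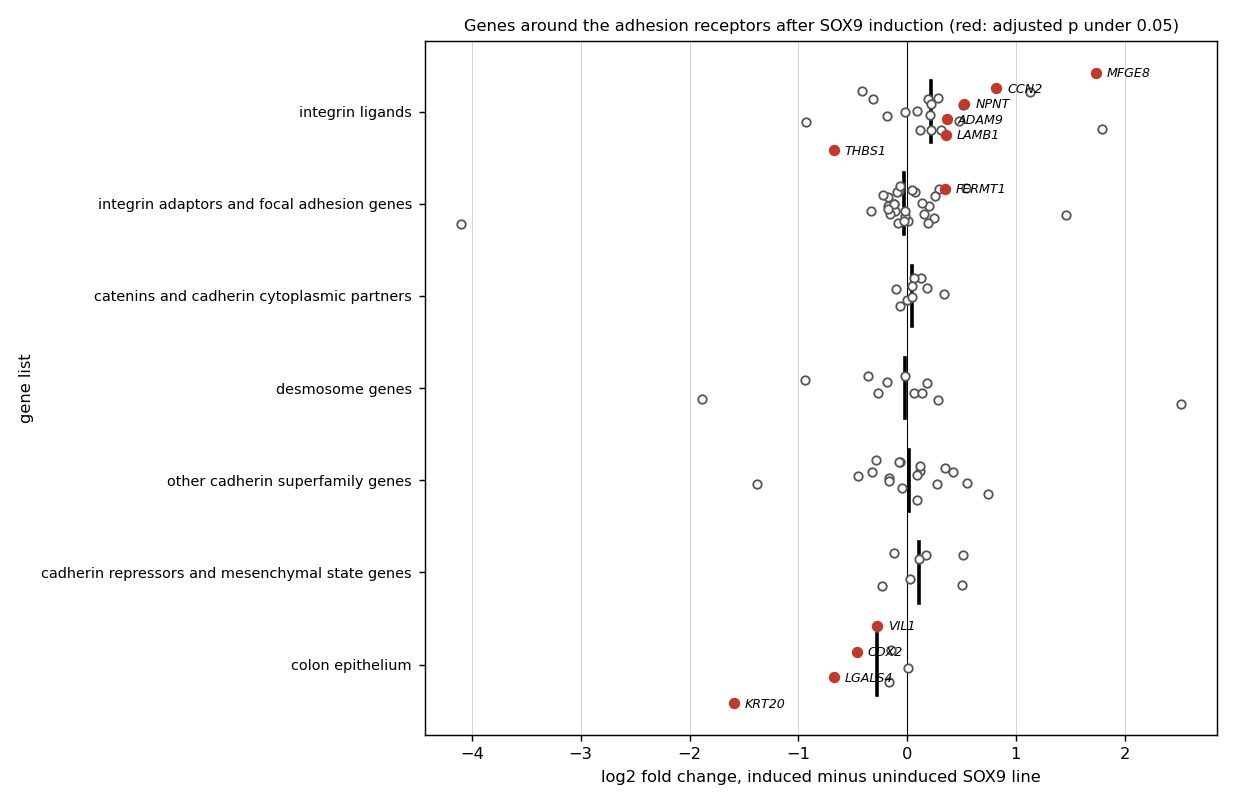
Log2 fold change after SOX9 induction (induced minus uninduced SOX9 line) for each tested gene of 7 lists; red points passed an adjusted p of 0.05 and the black bar is the list's median. Red points lie mainly among integrin ligands (5 higher, 1 lower) and colon epithelium markers (4 lower), with FERMT1 the single one among adaptors.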

How the data were processed

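RNA from 12 LS180 libraries, 2 in each of 6 groups, was read as 150-base pairs. The deposited table holds whole-number counts per gene, made by the authors with featureCounts 2.0.1 on Ensembl 101 (per the file headers) after STAR 2.7.0a alignment to hg38 (per the submitters' processing notes). Per the file headers, both mates were counted as reads, strand was not used, and multi-mapping reads and reads overlapping 2 genes were not counted. Library totals ran from 31012775 to 48529770 counts. Limits on counts cover counting error only and take counts as independent, so with both mates counted they are too low. The intervals of fold changes rest on the spread between libraries.

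Counts were fitted in edgeR 4.0.16 (R 4.3.3): TMM factors, filterByExpr (18219 genes kept), 1 mean per group over all 12 libraries, robust quasi-likelihood F-test, 6 residual degrees of freedom, Benjamini-Hochberg adjustment over all genes tested, passing at an adjusted p under 0.05. The spread of each gene was moderated by that of other genes, so tests and intervals used more than these 6 degrees of freedom. Differences between inductions were interaction contrasts. TPM used the table's exon lengths. Replicates of a group differed by more than sampling noise (chi-square per gene 6.71 to 19.4), although counting both mates raises this value by itself.

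Values in every library are given for genes that passed in any of 8 comparisons, for CDH1, CDH2, CDH3 and CDH17, and for the 3 alpha, 3 beta and 3 cadherin genes of highest TPM. Of each other list, the members that passed are named, at most 4 a comparison. The genes and lists were chosen with earlier results of these data known. Alternatives were RLE size factors, DESeq2 1.42.0, no filter, a mean of at least 1 CPM, only the lines compared, the replicate number as a block, and leaving out each library.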

Additional observations from a re-analysis of the deposited data

Results flagged for a closer look

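Among the adhesion genes and the listed genes around them, 5 differences between lines in the response to induction passed edgeR's interaction test. Over all 18219 genes, 163 (0.895%) passed for SOX9 minus GFP, 89 (0.489%) for SOX9 minus M303 and 1 (0.00549%) for M303 minus GFP. The log2 fold change after SOX9 induction exceeded that after GFP induction by 1.11 for ITGB8 and by 0.73 for CDH11, with both induced SOX9 libraries above the uninduced SOX9 libraries in each gene. ITGB8 values in the uninduced SOX9 line differed from those in the uninduced GFP line by -0.40 on the log2 scale, a difference that did not pass (edgeR adjusted p = 0.920), and its part in the interaction was not tested. Among the colon epithelium markers, the difference between SOX9 and GFP induction was -1.58 for KRT20 and -0.74 for LGALS4, and that between SOX9 and M303 induction was -0.53 for LGALS4 (edgeR adjusted p = 0.00548, 0.000133 and 0.00743). The last of these failed without replicate 1 of the uninduced M303 line or without either induced SOX9 library.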

How the results depend on the processing

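Of 738 alternative values of single genes, 686 kept direction and side of the threshold, 40 lost and 1 gained the call, and 11 changed sign, none of these from a value that had passed. ITGB8 and CDH11 passed after SOX9 induction in all 18 alternatives. The cause of the changes below was not tested. With no filter, 9 genes passed after M303 induction, 4 after GFP induction, 147 for SOX9 minus M303, 270 for SOX9 minus GFP, 11 for M303 minus GFP, and 17 and 22 for the uninduced SOX9 and M303 lines against GFP. With only the lines compared, 3 passed after M303 induction and 1 for the uninduced SOX9 line, and with DESeq2 2 passed after M303 induction, 2 after GFP induction and 2 for the uninduced SOX9 line.

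Leaving out 1 library moved the genes passing to 231 to 675 after SOX9 induction, 1 to 2 after M303 and 0 to 9 after GFP induction, 57 to 107 for SOX9 minus M303, 95 to 229 for SOX9 minus GFP, 1 to 12 for M303 minus GFP, 0 to 39 for the uninduced SOX9 line and 0 to 56 for the uninduced M303 line. The 9, 12, 39 and 56 came without replicate 1 of the uninduced GFP line. Adhesion genes passing ranged from 2 to 4 after SOX9 induction, from 1 to 2 for SOX9 minus GFP, and stayed at 0 elsewhere. The changes of sign were all in values that had not passed in that comparison. Over the fits that left out 1 library, the log2 fold change after SOX9 induction ranged from -0.19 to 0.0279 for ITGA3, from -0.0937 to 0.30 for ITGB4 and from -0.0165 to 0.16 for CDH3, each turned by 1 uninduced SOX9 library. That after M303 induction ranged from -0.0281 to 0.0165 for ITGA6 (0.0018 with no filter) and from -0.0705 to 0.0765 for ITGAV, and that of CDH11 after GFP induction from -0.20 to 0.0071.

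Same-numbered libraries did not deviate together (correlations -0.0786 to 0.0515 over 15 pairs of groups). These correlations ran over all tested genes, including those with few counts and much noise, so pairing by number is not excluded. With the replicate number as a block, 452 genes and 2 adhesion genes (ITGB8, CDH11) passed after SOX9 induction. ITGAV and ITGA6 then had adjusted p of 0.0587 and 0.0761.

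With 2 libraries a group and 1 line per construct, line and construct cannot be told apart. Genes under about 0.0967 CPM can have 0 counts in the shallowest library by counting alone, and so can somewhat higher ones, as both mates were counted.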
